A study of Mus musculus with 6 samples.

Results

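Gene expression was compared between mouse prostate cancer cells that had grown in the lung and the cultured line that had been injected, RM1536. RM1 is a mouse prostate cancer line of the C57BL/6 strain. RM1536 is RM1 carrying eCFP, a fluorescent protein, and luc2, a luciferase, which mark the cells for sorting and imaging, and pools 3 clones. The lung library is RM1536 taken out of the lung of 1 mouse, 16 days after PKH26-stained cells had been injected into its heart. Only cells negative for PKH26 were used; this membrane dye is diluted at each division, so these were cells that had divided. They were isolated by flow sorting and grown again in DMEM with 5% FBS to 85% confluency before RNA was extracted, and the labels give the same growth protocol for the cultured lines. The lung library thus holds RNA of cells that were back in culture, not RNA taken directly from the lung.

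The comparison uses 3 of the 6 libraries in the series: lung (1 library), RM1536 a and RM1536 b. The other libraries, unlabelled RM1 a and RM1 b and the cells recovered from bone of the same mouse, enter the statistical model and are quoted where they bear on a gene. All groups except RM1 carry eCFP and luc2. Depth was 26903505 counts in the lung library, 24291590 in RM1536 a and 30303566 in RM1536 b. Of 23791 named entries in the count table, 20163 had at least 1 read in these 3 libraries and 10128 reached 5 CPM (the depth-scaled read count, with TMM-scaled library sizes) in at least 1 of them. Nothing in the labels tells if a and b were grown separately, so p-values measure only the spread between these samples, which may be technical. Their counts differed by more than sampling noise (chi-square over degrees of freedom, 91.1).

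Cells that reach the lung through the blood must lodge in its capillaries, leave the vessel and divide among epithelium, endothelium and stroma. Genes often studied in this setting include matrix proteins and the proteases that cut them, growth factors, cell cycle genes, and the interferon and antigen presentation genes by which immune cells recognise a tumor cell. Replication genes are transcribed as a cell enters S phase, and sterol synthesis genes when its sterols run short.

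The labelled identity was compared with markers first. The epithelial adhesion gene Epcam was at 0.118 CPM in lung, 1.33 in a and 0.583 in b. The mesenchymal filament gene Vim was at 3417 CPM in lung, 2738 in a and 2595 in b. Only 3 of 21 epithelial genes reached 5 CPM in any of the 3 libraries, so defining markers of epithelium were scarce in the injected line as well as in the lung library. Markers of lung epithelium, leukocytes, erythroid cells and endothelium were low, and those of fibroblasts are given with the collagens. Of 10 lung epithelial markers in the table, 3 had 0 reads in lung, among them the surfactant gene Sftpc and the club cell gene Scgb1a1, and the list summed to 33.7 CPM against 28.0 and 26.5. Of 17 leukocyte markers, 4 had 0 reads in lung, among them Ptprc, which codes for CD45, and the list summed to 39.6 CPM against 30.5 and 23.8. More of them had 0 reads in the injected line, 8 in a and 9 in b. With 3 reads or fewer there were 8 in lung, 12 in a and 11 in b. In the RM1 cultures the leukocyte list summed to 34.9 CPM in RM1 a and 68.6 in RM1 b, where Cd68 stood at 43.5. Erythroid markers summed to 0.355 CPM in lung. Of 12 endothelial markers, 1 had 0 reads in lung, and the sum of 54.3 CPM, against 30.5 and 17.4, was mostly the VEGF receptor gene Flt1, at 41.4 CPM in lung. Lyz2, a lysozyme gene of macrophages, had 73 reads in lung (2.88 CPM) and 0 in both RM1536 libraries. It was picked after its values were seen. The part of other cells in the results was not tested.

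No gene passed the edgeR quasi-likelihood test of lung against RM1536 at a Benjamini-Hochberg adjusted p of 0.05 (0 of 13832 genes, 0%). The smallest adjusted p was 0.0758, for Crip2, and 1902 genes (13.8%) had an unadjusted p under 0.05, 894 of them higher and 1008 lower in lung. DESeq2 called 356 of 12701 genes (2.8%), 176 higher and 180 lower, and limma-voom called 0. The lung library has no replicate, so the model borrows the spread of the RM1 and RM1536 pairs (2 residual degrees of freedom). All p values carry that assumption, and none covers differences between mice. The results below are therefore values of 1 library set beside each of 2 others, and no gene is called unless DESeq2 is named.

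Against RM1536 a, 421 of the 10128 genes lay 2-fold or more higher in lung (4.16%) and 440 lower (4.34%), 8.5% in all. Against RM1536 b, 971 lay higher (9.59%) and 893 lower (8.82%), 18.4% in all. The RM1536 libraries lay 2-fold or more apart in 561 genes (5.54%). Differences were taken as log2 of CPM plus 0.5, which understates folds of genes with few reads. Lung lay 2-fold or more above both RM1536 libraries in 350 genes (3.46%) and below both in 341 (3.37%), of which 15 and 13 are predicted or unnamed. At 4-fold the counts were 62 (0.612%) and 29 (0.286%), and at 8-fold 14 (0.138%) and 4 (0.0395%). Counting differences of any size, lung lay above both in 39% of genes and below both in 39.5%. In 16 genes lung lay 2-fold or more on opposite sides of a and b, 3 above a and below b and 13 the reverse. Scaled by total counts in place of TMM, 262 genes lay higher and 464 lower. That scaling moved the median of all genes to -0.127 against a and -0.112 against b, from -0.008 and 0.003. The plot of lung against each RM1536 library shows how far the paired differences follow each other; both share the lung library, so points along the diagonal are partly built in.

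**Figure D1:**
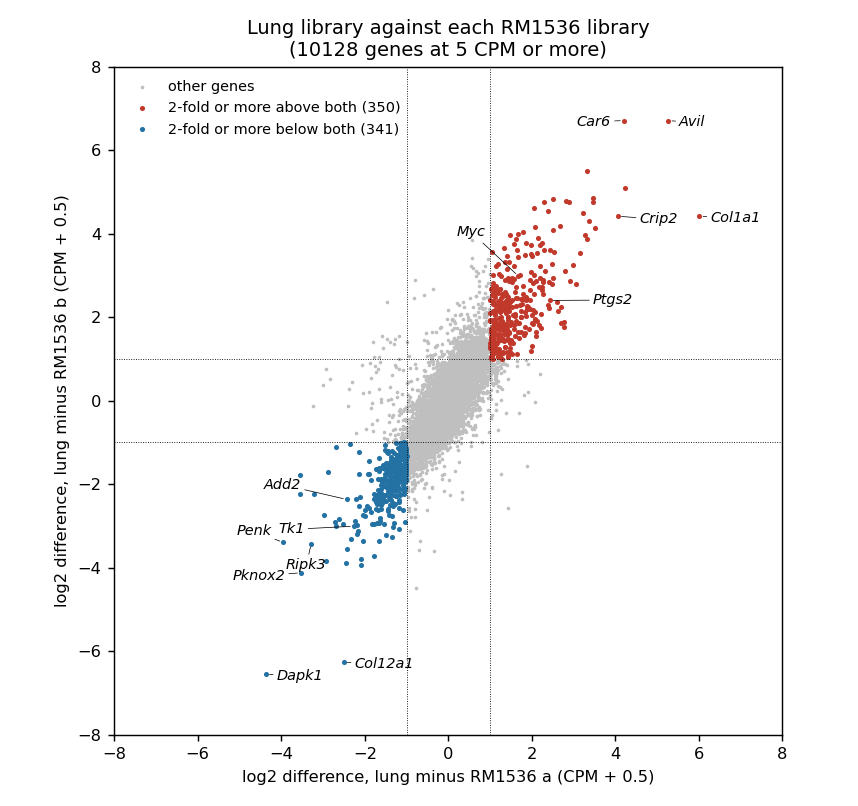
Log2 difference of the lung library from RM1536 a (horizontal) and from RM1536 b (vertical), 1 point per gene at 5 CPM or more, with dotted lines at 2-fold. The 350 genes 2-fold or more above both libraries are red and the 341 below both are blue, with Col1a1 and Avil at the upper right and Dapk1 at the lower left.

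The genes higher in lung by the widest margin over both RM1536 libraries were of mixed function. Avil (chromosome 10, 127000709 to 127020994, GRCm38), which codes for the actin-severing protein advillin, stood at 106 CPM in lung against 2.25 in a and 0.518 in b, 46.9-fold and 204-fold higher. Col1a1 (chromosome 11, 94936224 to 94953042), the gene of the main chain of type I collagen, stood at 604 CPM against 8.85 and 27.8, 68.2-fold and 21.8-fold higher. Crip2 (chromosome 12, 113140236 to 113145506), which codes for a small LIM-domain protein, stood at 89.1 CPM against 4.87 and 3.69. In each of these genes lung lay above the other 5 libraries. The RM1 libraries were apart for Avil, at 0.434 CPM in RM1 a and 6.80 in RM1 b. The edgeR log2 fold change was 6.28 ± 1.40 (SE, n = 1 and 2) for Avil (adjusted p = 0.295), 5.04 ± 0.62 for Col1a1 (0.252) and 4.38 ± 0.29 for Crip2 (0.0758).

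Secreted and signalling products were among them. Gdnf, a growth factor of neurons and of spermatogonia, stood at 23.2 CPM in lung against 1.65 and 0.324. Creb3l1, which codes for a membrane-bound transcription factor that drives collagen and secretory genes, stood at 62.6 CPM against 6.196 and 2.298. Cdsn, which codes for the skin adhesion protein corneodesmosin, stood at 51.8 CPM against 2.29 and 1.04. Bone stood at 1.71 CPM for Gdnf, 5.53 for Creb3l1 and 5.49 for Cdsn, so lung was the highest library for each of the 3. Prdm1, which codes for the transcriptional repressor BLIMP1, stood at 22.4 CPM in lung against 1.49 and 0.809, and at 69.7 in bone. Scara5, a ferritin receptor gene, stood at 56.1 CPM against 5.03 and 2.36, and at 79.7 in bone. These 2 genes were thus higher still in the bone library.

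The other 7 named higher genes had from 7.14 to 109 CPM in lung. Car6, a secreted carbonic anhydrase gene, stood at 109 CPM against 5.47 and 0.55, with 0.2 in RM1 a and 24.8 in RM1 b. Sh2d6 stood at 28.1 CPM against 2.37 and 0.13, with 0.134 and 13.2 in RM1. For both, the RM1 libraries lay further apart than the RM1536 libraries. The same held for Avil, Cdsn, Creb3l1, Scara5, Cox6a2, Elfn2 and Ccdc3, and not for the remaining named higher genes. Cox6a2, a muscle form of a cytochrome oxidase subunit, had 396 reads in lung against 24 in a, a ratio of 16.2 (exact 95% counting interval 10.7 to 25.6), and 3 in b, a ratio of 161 (54.7 to 784). Abca8a, a lipid transporter gene, had 184 reads against 7 in a, a ratio of 25.8 (12.3 to 65.0), and 1 in b, a ratio of 224 (39.8 to 8911). Elfn2 had 181 against 9 in a, a ratio of 19.7 (10.2 to 43.9), and 5 in b, a ratio of 44.1 (18.6 to 138). These intervals cover counting error only. Odf3l1 stood at 12.4 CPM against 0.845 and 0.324, and Ccdc3 at 10.4 against 0.885 and 0.647. Of the 15 higher genes DESeq2 called 11, the exceptions being Avil (adjusted p = 0.0546), Car6 (0.372), Cox6a2 (0.4005) and Sh2d6 (0.489). Avil, Cox6a2, Elfn2 and Ccdc3 overlap annotated genes on the opposite strand, and the strand setting of the counting is not given in the sources used here.

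**Figure D2:**
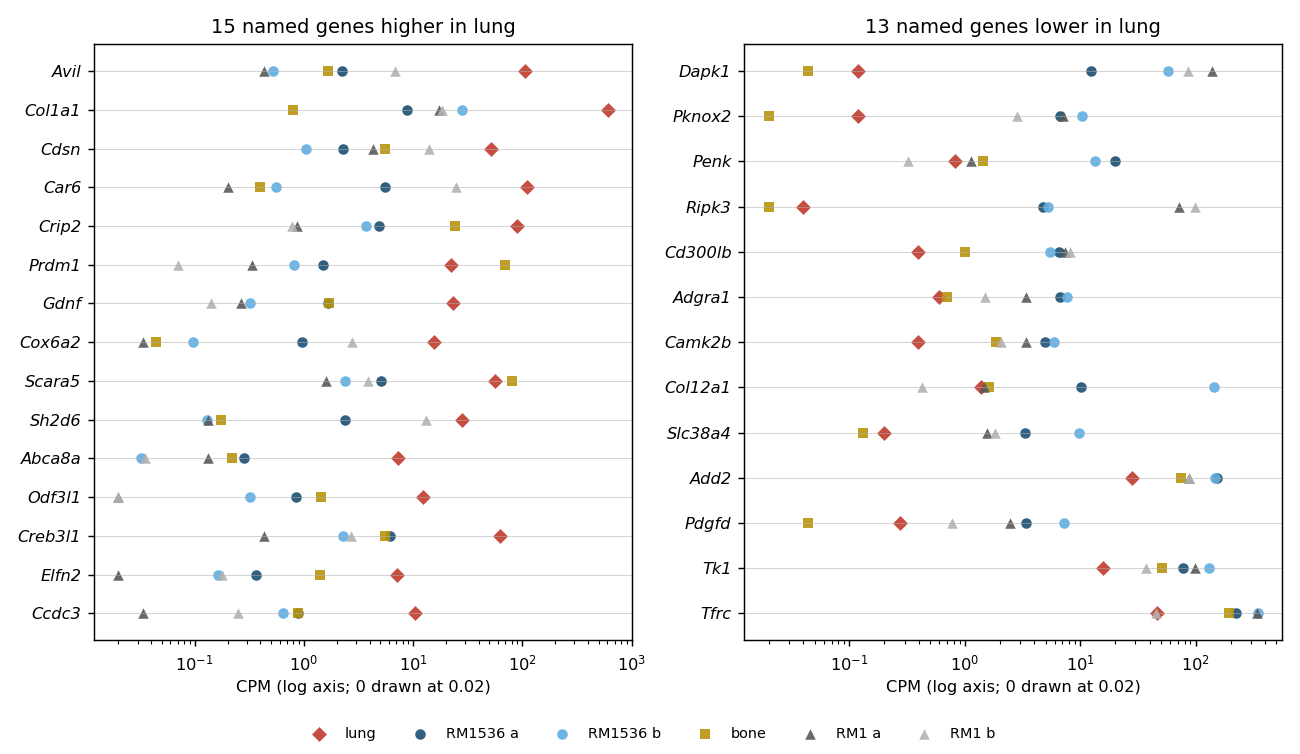
CPM (log axis) in each of the 6 libraries for the 15 named genes furthest above both RM1536 libraries (left) and 13 of the 15 furthest below both (right). Lung (red diamonds) lies to the right of both RM1536 libraries in the left panel and to the left of both in the right panel, and bone lies above lung for Prdm1 and Scara5.

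The genes lower in lung by the widest margin included regulators of cell death. Dapk1, which codes for a calcium-dependent kinase that promotes cell death, had 3 reads in lung (0.118 CPM) against 12.3 CPM in a and 57.5 in b, ratios of 0.00965 to a (exact 95% counting interval 0.00198 to 0.0285) and 0.00206 to b (0.000424 to 0.00603). Ripk3, which codes for the kinase that starts necroptosis, had 1 read in lung against 4.75 CPM in a and 5.28 in b, ratios of 0.00831 to a (0.000209 to 0.0472) and 0.00748 to b (0.000188 to 0.0423). Bone was as low, at 0.0439 CPM for Dapk1 and 0 reads for Ripk3. RM1 stood at 140 and 86.1 CPM for Dapk1 and at 71.2 and 99.5 for Ripk3, so RM1536 already lay below RM1 and both recovered libraries lay lower still. DESeq2 called both (adjusted p = 6.19e-10 and 0.000843), while edgeR adjusted p was 0.269 and 0.227.

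Several lower genes code for signals or for proteins at the cell surface. Penk, the gene of proenkephalin, stood at 0.829 CPM in lung against 20.1 and 13.5. Pdgfd, a growth factor gene, stood at 0.276 CPM against 3.38 and 7.19. In both genes the lung value lay below each RM1536 value by 12.2-fold or more. Tfrc, which codes for the transferrin receptor that brings iron into dividing cells, stood at 46.6 CPM against 222 and 346, 4.76-fold and 7.43-fold lower. RM1 b was as low, at 45.0 CPM, with 341 in RM1 a. Add2, an adducin gene of the membrane skeleton, stood at 28.1 CPM against 154 and 147 and at 74.1 in bone.

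Pknox2 had 3 reads in lung against 165 in a, a ratio of 0.0178 (0.00364 to 0.0530), and 317 in b, a ratio of 0.0115 (0.00237 to 0.0340). Cd300lb had 10 reads against 163 and 168, ratios of 0.0602 and 0.0726. Slc38a4, an amino acid transporter gene, had 5 reads against 82 and 301, ratios of 0.0598 and 0.0203. Adgra1 had 15 reads against 167 and 239, and Camk2b 10 against 124 and 183. The matrix gene Col12a1 stood at 1.38 CPM against 10.2 in a and 144 in b, so its 2 folds differed by more than 10 times. Tk1, the thymidine kinase of S phase, stood at 15.8 CPM against 77.6 and 130. Of the 15 lower genes DESeq2 called 13, all but Col12a1 (adjusted p = 0.0696) and Tfrc (0.432). The edgeR adjusted p of these 30 genes ran from 0.0758 (Crip2) to 0.392 (Sh2d6). All 30 kept their direction in each setting that could test them. They were picked by direction and size in the same libraries, so this was largely fixed in advance. Their DESeq2 calls rest on the same libraries and are not separate support. Penk, Pknox2, Cd300lb, Col12a1, Add2, Pdgfd and Tk1 overlap annotated genes on the opposite strand.

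The members of the DNA replication list were lower in lung almost throughout. These genes code for the helicase that opens the origin (the Mcm genes), the factors that load it (Cdc6, Cdt1), polymerases, the sliding clamp and the enzymes that make nucleotides. Of 27 members at 5 CPM or more, 26 lay below both RM1536 libraries and 18 lay 2-fold or more below both, with 0 above, where all genes gave 3.37% and 3.46%. The median log2 difference was -1.15 against a and -1.59 against b, beside -0.008 and 0.003 over all genes. Counting any size, 39.5% of all genes lay below both. By edgeR 0 of 28 tested members passed, 23 had an unadjusted p under 0.05, and DESeq2 called 9. Over all genes tested, 13.8% had an unadjusted p under 0.05 and DESeq2 called 2.8%.

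Ccne2, a cyclin of S phase entry, stood at 1.62 CPM in lung against 9.09 and 16.3. Cdc6 stood at 10.4 CPM against 38.5 and 83.4, and Uhrf1, which codes for a reader of hemimethylated DNA behind the fork, at 54.2 against 166 and 332. Rrm2, a subunit of ribonucleotide reductase, stood at 57.6 CPM against 188 and 296. In these 4 genes lung was lowest of the 6 libraries. The helicase gene Mcm5 stood at 51.1 CPM against 122 and 229, with 53.1 in RM1 b, and the clamp gene Pcna at 178 against 316 and 418, with 175 in RM1 b. Cdt1 was the exception, at 126 CPM in lung against 102 and 114. Cyclin E1 (Ccne1, 4.38 CPM against 14.4 and 27.2) and the polymerase gene Pole (20.1 against 54.6 and 84.0) also had lung lowest. Between the culture duplicates the same list had a median of 0.618 in RM1536 b against a and of -0.765 in RM1 b against a; lung lay further below a than b lay above it. With genes 2-fold apart between RM1 a and b left out, 7 of 16 members lay 2-fold below both.

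Promoters of this list are shown because its members lay on the same side of the line and E2F factors are known to bind in front of such genes. The sequences are from RefSeq (GRCm38.p6) and run from 250 bases before to 50 after the RefSeq start site. In GENCODE M21, Cdc6 begins at 98907801 and Uhrf1 at 56303321, before the windows printed below. By that annotation the letters of these genes lie inside the gene. A search for TTTGGCGC, TTTCGCGC, TTTCCCGC and TTTGCCGC on both strands found a match in 11 of 22 members that have a promoter in the table (50%). Of all 27025 genes 2.61% held one, and of all 32851 promoters 2.27%. Lung lay 2-fold or more below both RM1536 libraries in 7 of the 11 members with a match and in 5 of the 11 without. A match is a description of the letters, not a site. Capitals mark the matches, which overlap in Mcm5.
Mcm5, chr8:75109259-75109558, plus strand: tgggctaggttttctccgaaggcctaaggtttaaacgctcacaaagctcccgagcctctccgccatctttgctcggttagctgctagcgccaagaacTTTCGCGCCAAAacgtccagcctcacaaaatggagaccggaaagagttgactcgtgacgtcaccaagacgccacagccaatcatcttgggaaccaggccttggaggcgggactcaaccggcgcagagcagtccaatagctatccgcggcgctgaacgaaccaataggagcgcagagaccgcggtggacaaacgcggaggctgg
Cdc6, chr11:98907901-98908200, plus strand: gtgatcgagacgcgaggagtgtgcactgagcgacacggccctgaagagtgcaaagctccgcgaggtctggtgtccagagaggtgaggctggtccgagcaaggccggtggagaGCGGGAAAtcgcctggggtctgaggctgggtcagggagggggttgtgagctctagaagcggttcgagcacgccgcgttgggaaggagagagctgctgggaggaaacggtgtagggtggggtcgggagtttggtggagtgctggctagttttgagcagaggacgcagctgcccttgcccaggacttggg
Uhrf1, chr17:56304063-56304362, plus strand: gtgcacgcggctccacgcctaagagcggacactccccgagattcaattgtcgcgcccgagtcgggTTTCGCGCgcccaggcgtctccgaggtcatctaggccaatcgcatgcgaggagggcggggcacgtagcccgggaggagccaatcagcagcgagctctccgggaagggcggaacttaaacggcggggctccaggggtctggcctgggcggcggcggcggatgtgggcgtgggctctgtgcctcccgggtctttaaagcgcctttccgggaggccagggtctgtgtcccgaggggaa

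Mitosis genes, which code for spindle motors, kinetochore parts and the factors that trigger anaphase, lay below both RM1536 libraries in 26 of 26 members. The margin was narrower: 4 were 2-fold or more below both, and the median was -0.770 against a and -1.32 against b. Over all genes 39.5% lay below both and 3.37% lay 2-fold or more below both. Cdc20, the activator of the anaphase-promoting complex, stood at 80.8 CPM in lung against 205 and 317. The kinesin gene Kif20a stood at 59.6 against 129 and 207, and Birc5, which codes for survivin, at 41.5 against 84.9 and 113. Lung was below bone in each, with bone at 187, 85.2 and 65.4 CPM, while RM1 b stood at 116, 49.3 and 46.7, below bone in each and, for Kif20a, below lung. By edgeR 0 of 26 passed (13 at an unadjusted p under 0.05), and DESeq2 called Cdc20 alone. Among all genes tested the shares were 13.8% at that unadjusted p and 2.8% by DESeq2. The list's median was 0.423 in RM1536 b against a and -0.715 in RM1 b against a.

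Genes of cholesterol and fatty acid synthesis were lower as well. Their transcription is driven by SREBP factors when sterols are short. Of 28 members at 5 CPM or more, 27 lay below both RM1536 libraries and 9 lay 2-fold or more below both, with medians of -0.813 against a and -1.83 against b. The shares of all genes were 39.5% below both and 3.37% 2-fold or more below both. Idi1, an isomerase of the mevalonate pathway, stood at 40.1 CPM in lung against 161 and 276. Hmgcs1, which makes HMG-CoA, stood at 60.9 CPM against 173 and 324. Elovl6, a fatty acid elongase gene, stood at 42.3 CPM against 116 and 267 and at 209 in bone. In all 3 lung was the lowest library. Srebf2, which codes for one of the SREBP factors, was closer to the line, at 381 CPM against 387 and 522. By edgeR 0 of 28 passed (19 at an unadjusted p under 0.05), and DESeq2 called 10. The same tests gave 13.8% and 2.8% of all genes. RM1536 b exceeded a by a median of 0.962 over this list, more than lung lay below a.

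The SREBP element TCACNCCAC, searched on both strands, was found in the promoter of 1 of 18 members with a promoter in the table (5.56%), Hmgcs1, and in 1.44% of all genes and 1.24% of all promoters. It is printed as the only match, with the element in capitals.
Hmgcs1, chr13:119690101-119690400, plus strand: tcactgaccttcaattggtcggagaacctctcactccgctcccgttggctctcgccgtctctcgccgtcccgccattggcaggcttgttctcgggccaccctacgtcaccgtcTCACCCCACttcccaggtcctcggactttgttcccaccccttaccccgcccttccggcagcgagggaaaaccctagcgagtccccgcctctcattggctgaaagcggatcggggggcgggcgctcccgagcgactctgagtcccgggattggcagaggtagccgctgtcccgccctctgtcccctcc

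**Figure D3:**
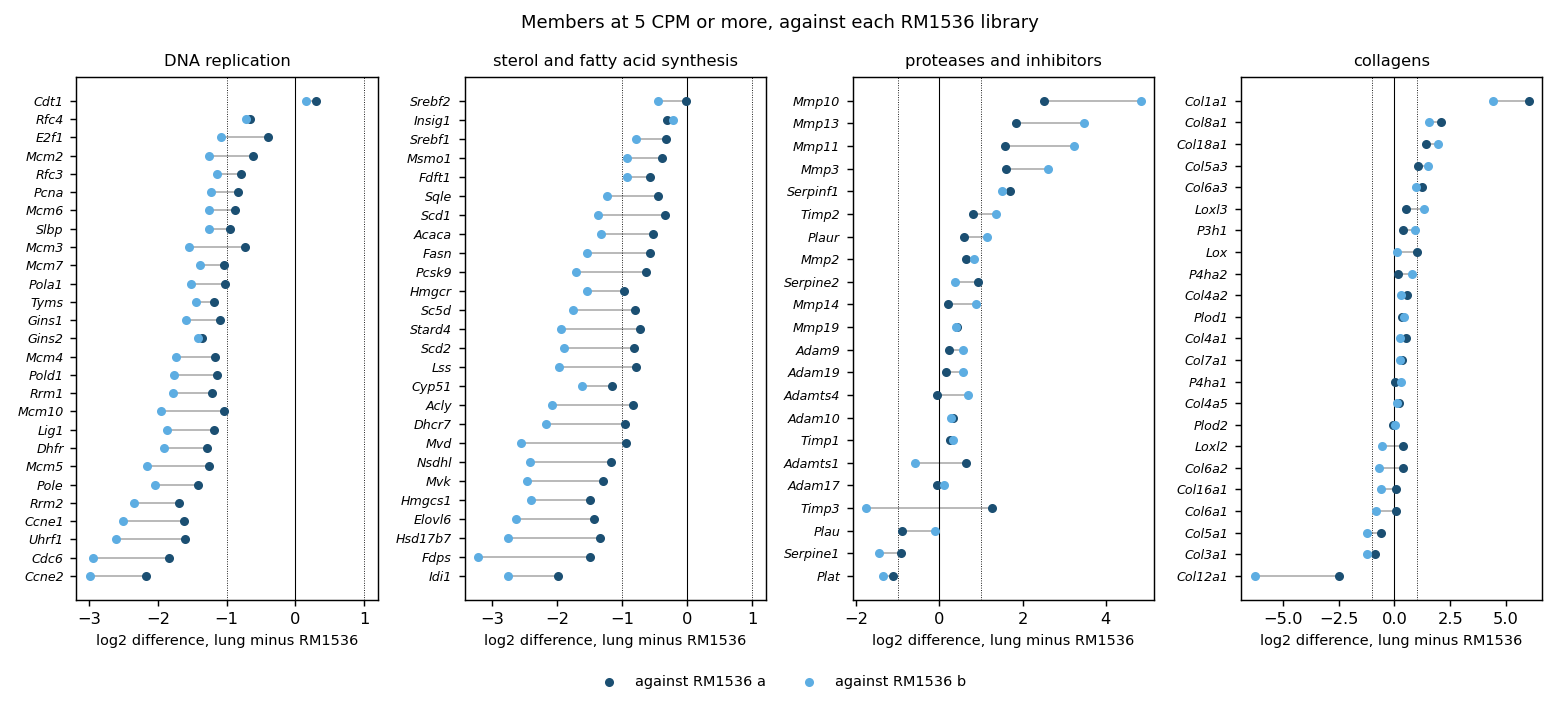
Log2 difference of lung from RM1536 a (dark) and from RM1536 b (light) for members at 5 CPM or more of 4 gene lists, with dotted lines at 2-fold. In DNA replication 26 of 27 members and in sterol and fatty acid synthesis 27 of 28 lie left of 0 against both libraries (26 of the 28 are drawn, without the exception), and Col1a1 and Col12a1 stand at the ends of the collagens.

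Matrix genes went both ways. Of 23 collagens and collagen-modifying genes at 5 CPM or more, 4 lay 2-fold or more above both RM1536 libraries and 1 below both, with medians of 0.364 and 0.247. The shares of all genes were 3.46% above both and 3.37% below both. Col1a1 stood apart at 604 CPM (values above). Type I collagen is normally built from Col1a1 and Col1a2 chains together; Col1a2 stood at 0.276 CPM in lung against 0.644 and 1.04, and was picked after its values were seen. Col18a1, the precursor gene of endostatin, stood at 1900 CPM against 709 and 495, and Col5a3 at 27.0 against 12.6 and 9.35. For Col5a3, RM1 a and b lay above lung, at 29.9 and 46.9 CPM. Col8a1 stood at 8.88 CPM against 1.69 and 2.72. In these 3 the lung value was above both RM1536 values by 2.15-fold to 5.26-fold. Col3a1, a fibrillar collagen of soft tissue, went the other way, at 413 CPM against 762 and 972.

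Col1a1 is also a fibroblast marker. Of 11 fibroblast and mesothelium markers in the table, 1 had 0 reads in lung, and the list summed to 1136 CPM in lung against 892 in a and 1110 in b. The rest of the list, without Col1a1, summed to less in lung than in either RM1536 library. Lum, a proteoglycan gene that fibroblasts express, had 3 reads in lung, and Dcn stood at 24.3 CPM against 57.9 and 21.1. The receptor gene Pdgfra stood at 28.3 CPM against 12.7 and 6.12.

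Among 29 matrix glycoproteins at 5 CPM or more, 2 lay 2-fold above both and 0 below, beside 3.46% and 3.37% of all genes. Bgn, which codes for the proteoglycan biglycan, stood at 25.3 CPM against 3.30 and 6.44 and at 0.0878 in bone. Ecm1 stood at 416 CPM against 154 and 103. The fibrillin gene Fbn1 stood at 491 CPM against 217 and 254, and the fibronectin gene Fn1 at 5295 against 2770 and 2976, with 780 in bone. Lung was the highest library for all 4. Thbs1, which codes for thrombospondin 1, lay below, at 587 CPM against 925 and 1712. Fbn2, picked after its values were seen, had 0 reads in lung and bone against 82 in a and 207 in b. Taking 3 reads for 0, lung was at least 27.9-fold lower than a and at least 56.6-fold lower than b. DESeq2 called Bgn and Ecm1, and edgeR adjusted p was 0.278 for both.

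Matrix metalloproteinases cut collagen and other matrix, and 4 of them were among the proteases and inhibitors furthest above the line. Of 22 proteases and inhibitors at 5 CPM or more, 5 lay 2-fold or more above both RM1536 libraries and 1 below, beside 3.46% and 3.37% of all genes, with medians of 0.508 and 0.569. Mmp3, stromelysin 1, stood at 771 CPM against 253 and 126. Mmp10, stromelysin 2, stood at 176 CPM against 30.4 and 5.70. Mmp13, a collagenase, stood at 103 CPM against 28.4 and 8.74, and Mmp11 at 69.5 against 22.97 and 6.927. Each lay at least 3-fold above RM1536 a and 6-fold above b, and lung was the highest library. Bone stood at 118 CPM for Mmp10, near lung, but at 6.28 for Mmp13. Serpinf1, the gene of the angiogenesis inhibitor PEDF, stood at 650 CPM against 200 and 228 and at 49.1 in bone. The plasminogen activator gene Plat was the member below both, at 8.96 CPM against 20.0 and 23.7. Timp3, an inhibitor, stood between, at 4.78 CPM against 1.69 and 17.2. DESeq2 called Mmp3, Mmp11, Mmp13 and Plat, and the smallest edgeR adjusted p in the list was 0.295.

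Immediate early genes, which are transcribed within minutes of a growth factor or stress signal, had 6 of 29 members 2-fold or more above both and 0 below, with medians of 0.520 and 0.697. Among all genes the shares were 3.46% and 3.37%. Klf4, a transcription factor gene, stood at 547 CPM against 201 and 75.0. Egr1 stood at 335 CPM against 83.3 and 135, and at 381 in bone. The phosphatase gene Dusp1 stood at 41.7 CPM against 13.5 and 13.9, and Fosl1, an AP-1 subunit gene, at 416 against 179 and 147. Ier5 and Dusp5 had 315 and 116 CPM in lung. In RM1 b the same list lay above RM1 a by a median of 0.424, and with genes 2-fold apart between RM1 a and b left out, 2 members remained 2-fold above both. DESeq2 called Dusp5, Fosl1, Ier5 and Klf4, while edgeR passed 0 of 30 (10 higher and 1 lower at an unadjusted p under 0.05). Of all genes tested, DESeq2 called 2.8%, and 13.8% had an unadjusted edgeR p under 0.05 in either direction.

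Ptgs2, which codes for the cyclooxygenase COX-2 and has been linked to lung metastasis, stood at 665 CPM in lung against 124 and 126, with 127 in bone and 307 in RM1 b. The RM1536 libraries were nearly equal, and lung was 5.38-fold and 5.30-fold above them. Its edgeR log2 fold change was 2.42 ± 0.54 (SE, n = 1 and 2; adjusted p = 0.295), and DESeq2 called it. Chemokines of the same NF-kappaB list lay lower: Cx3cl1 stood at 25.6 CPM against 87.1 and 130, and Ccl2, which draws monocytes, at 20.0 against 55.9 and 67.8. Ccl7 stood at 6.00 CPM against 17.9 and 13.0. Of 16 members of that list at 5 CPM or more, 2 lay 2-fold above both and 3 below both, beside 3.46% and 3.37% of all genes. Of 17 lung metastasis list members at 5 CPM or more, 8 lay above both RM1536 libraries and 7 below both, beside 39% and 39.5% of all genes. At 2-fold, 2 lay above both and 1 below both, and the list's medians were 0.085 against a and 0.093 against b. Vcam1, an adhesion gene of the lung metastasis list, stood at 42.3 CPM against 18.2 and 20.2, with 54.9 in RM1 a and 32.0 in RM1 b. Angptl4, from the same list, was low, at 2.05 CPM against 29.2 and 8.25, with 33.0 in bone.

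Myc stood at 124 CPM in lung against 38.4 in a and 15.2 in b, and at 8.35 in bone. Its gene lies on chromosome 15 (61985391 to 61990374). The MYC and ribosome biogenesis list did not follow it: 5 of 29 members lay above both and 17 below both, with medians of -0.146 and -0.538. Over all genes 39% lay above both and 39.5% below both. The nucleolar gene Nop2 stood at 96.8 CPM against 140 and 235, and the RNA polymerase I subunit gene Polr1b at 38.1 against 58.7 and 86.4. Max, which codes for the partner of MYC, stood at 169 CPM against 108 and 111. Mycn had 3 reads in lung against 12 in a, a ratio of 0.245 (0.0444 to 0.909), and 180 in b, a ratio of 0.0203 (0.00415 to 0.0604). DESeq2 called Myc as the only member, and its edgeR adjusted p was 0.307.

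Growth factor genes had 4 of 25 members at 5 CPM or more 2-fold above both and 0 below, beside 3.46% and 3.37% of all genes. With total counts 2 lay above and 1 below, with a prior of 2 CPM 2 and 0, with a prior of 0.1 CPM 4 and 2, and without RM1536 a the counts were 11 and 3. Igfbp6, which codes for a binding protein of IGF2, stood at 227 CPM against 77.5 and 87.5. Kitl, which codes for stem cell factor, stood at 255 CPM against 127 and 98.2. Pdgfra and Flt1 are given above. Bmp6, a BMP ligand gene, stood at 28.2 CPM against 4.22 and 5.11, and Inhba, which codes for the activin A subunit, at 9.95 against 30.5 and 30.1. For these 2 the RM1536 values were close together and lung lay well outside them. Of the TGF-beta list, 10 of 24 members lay above both and 8 below both, near the 39% and 39.5% of all genes. The Wnt ligand gene Wnt9a stood at 11.5 CPM against 3.38 and 1.33. Of 14 Wnt members at 5 CPM or more, 2 lay 2-fold above both and 0 below, against the same shares of all genes.

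Interferon-stimulated genes, many of them antiviral, mostly lay between the RM1536 libraries. Of 45 members at 5 CPM or more, 32 lay between RM1536 a and b, 11 below both and 2 above both, and 0 were 2-fold from both in either direction. Over all genes 21.4% lay between them or equal to 1 of them, 39.5% below both and 39% above both. The list's median was -1.39 against a and 0.546 against b, while b lay below a by 2.16, so the sign depends on the library used. Isg15 stood at 27.0 CPM in lung against 47.6 and 3.24, and Irf7 at 7.34 against 26.3 and 3.27. Stat2, a subunit of the factor that interferon activates, stood at 19.3 CPM, below 68.6 and 32.0. Oasl1 stood at 16.2 CPM, above 8.65 and 1.29. In RM1 the same genes were higher than in lung, at 211 and 363 CPM for Isg15 and at 166 and 302 for Stat2. Of the genes of MHC class I presentation, 0 of 16 lay 2-fold from both, with medians of -0.342 and 0.320. Among all genes 3.46% lay 2-fold or more above both and 3.37% below both. The class I gene H2-K1 stood at 191 CPM against 178 and 154, and the immunoproteasome subunit gene Psmb10 at 11.7 against 29.7 and 23.1. By edgeR 0 of 54 interferon-stimulated and 0 of 20 MHC members passed (1 and 5 at an unadjusted p under 0.05), and DESeq2 called 0. The shares over all genes tested were 13.8% at that unadjusted p and 2.8% by DESeq2.

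Ligands that immune cells read on tumor cells lay above both RM1536 libraries in 8 of 9 members at 5 CPM or more, beside 39% of all genes, with 0 past 2-fold against both. Against b alone 7 were past 2-fold, and 1 was past it against both with DESeq2 size factors or a prior of 0.1 CPM. Cd276, a B7 family member, stood at 59.8 CPM against 30.6 and 25.4, and Pvr, a ligand of TIGIT and CD226, at 250 against 135 and 58.3. Pvrl2 stood at 17.0 CPM against 8.25 and 5.83. Over this list RM1536 b lay below a by a median of 0.669 and RM1 b above RM1 a by 0.497. DESeq2 called Cd276.

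Lysosomal genes lay above both in 21 of 24 members, with medians of 0.423 against a and 1.07 against b, and 2 were 2-fold above both and 1 below. Among all genes 39% lay above both, 3.46% lay 2-fold above both and 3.37% lay 2-fold below both. Over the lysosomal list the median of RM1536 b against a was -0.619, a wider gap than that of lung against a. Ctsl, a cathepsin gene, stood at 7151 CPM against 3008 and 1578. Ctsk, the cathepsin of osteoclasts, stood at 13.2 CPM against 2.29 and 0.615. The glucuronidase gene Gusb was the member below, at 54.6 against 123 and 118. The CLEAR element TCACGTGA, searched on both strands, was in the promoter of 4 of 22 members with one in the table (18.2%), against 1.13% of all genes and 0.974% of all promoters; neither of the 2 genes 2-fold above both had it. Of the unfolded protein and ATF4 list, 3 of 28 members lay 2-fold above both and 0 below, against the same shares of all genes. Atf3 stood at 109 CPM in lung against 25.8 and 3.98, and Nupr1 at 314 against 142 and 49.3. RM1 b stood at 101 and 342 CPM for these, close to lung, against 10.7 and 142 in RM1 a. The list's median was 0.942 in RM1 b against a, beside 0.246 in lung against RM1536 a and 1.04 against RM1536 b. With genes 2-fold apart between RM1 a and b left out, 1 member remained 2-fold above both.

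All 9 mitochondrially encoded genes at 5 CPM or more lay above both RM1536 libraries, with medians of 0.582 and 0.839. The share of all genes above both was 39%, and 3.46% lay 2-fold or more above both. mt-Cytb, a subunit of complex III, stood at 5037 CPM against 2345 and 2196, the single member past 2-fold against both. mt-Co1 stood at 6802 CPM against 4160 and 4411, and at 6291 in bone. These transcripts made up 1.95% of counts in lung, 1.30% in a, 1.2% in b and 1.83% in bone. In RM1 a they made up 0.932% and in RM1 b 0.567%. The list's median was -0.794 in RM1 b against RM1 a.

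**Figure D4:**
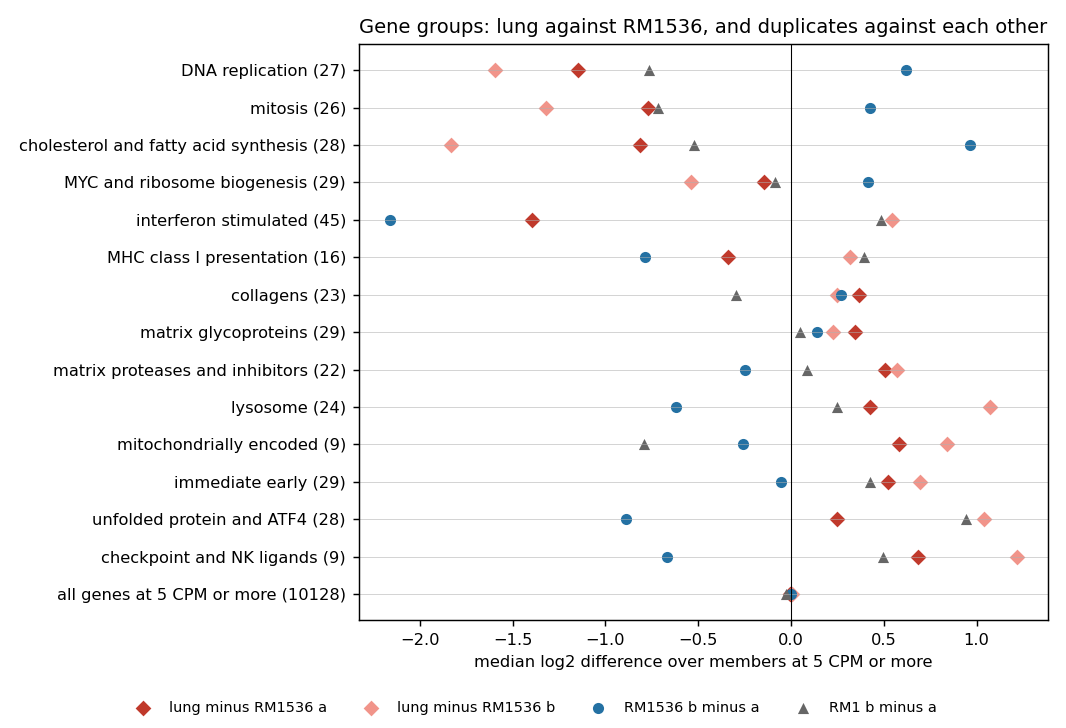
Median log2 difference over the members at 5 CPM or more of 14 gene lists and of all genes, for lung against each RM1536 library (diamonds) and for RM1536 b against a (circles) and RM1 b against a (triangles). Replication, mitosis and sterol genes lie left of 0 in lung against both libraries, and interferon-stimulated genes lie at -1.39 against a and 0.546 against b, with RM1536 b against a at -2.16.

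The remaining lists are given by single members. Their counts stand beside 3.46% of all genes 2-fold or more above both RM1536 libraries and 3.37% below both. Of 11 integrins at 5 CPM or more, Itga3 lay 2-fold below both, at 28.3 CPM against 87.1 and 107, and Itgb7 2-fold above, at 1297 against 504 and 290. Of the contractile and YAP-linked genes, Ankrd1 stood at 9.36 CPM against 1.01 and 2.20, and Tpm1 at 758 against 518 and 630. For Ankrd1, RM1 a and b stood at 11.7 and 9.81 CPM, above lung. Of 20 p53 targets, Plk2 stood at 122 CPM against 25.6 and 36.3, while Ccng1 stood at 120 against 225 and 287. In the bone metastasis list Padi4 stood at 14.0 CPM against 3.34 and 2.56, with 112 in bone. RM1 a and b stood at 78.4 and 99.6 CPM for Padi4, so lung lay above RM1536 and below RM1. Pthlh, which codes for the bone-resorbing hormone PTHrP, stood at 15.4 CPM against 33.0 and 34.7, with 74.3 in bone. Of 17 mesenchymal transition genes 0 were 2-fold from both; Zeb2 stood at 101 CPM against 59.0 and 38.4. Steap1, a prostate surface antigen gene, stood at 184 CPM against 81.1 and 51.7. Of 24 glycolysis and hypoxia genes, Eno2 stood at 65.6 CPM against 23.7 and 14.4, and Eno1 at 1122 against 1970 and 2950. Of 26 NRF2 genes 0 were 2-fold from both, and the ferritin gene Fth1 stood at 3168 CPM against 2134 and 1827.

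The genes that set lung apart overlapped with those that set the RM1 cultures apart, a pair that shares no library with the comparison. Of the 350 genes 2-fold above both RM1536 libraries, 114 (32.6%) were also 2-fold higher in RM1 b than in RM1 a, which is 36.2% of the 315 such genes; over all genes the share was 3.11%. Of the 341 genes below both, 72 (21.1%) were 2-fold lower in RM1 b, 43.1% of 167, beside 1.65% over all genes. In the opposite direction the counts were 1 and 8. With the genes 2-fold apart between RM1 a and b left out, 235 genes lay 2-fold above and 261 below both RM1536 libraries, of 9646. What the RM1 cultures and the lung library share was not tested.

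By chromosome, genes of chromosome 15 lay higher in lung. Over 367 genes there with a mean of at least 10 CPM, the median log2 difference was 0.252 against a and 0.260 against b, and 59.9% lay above both and 19.3% below both. Bone stood at -0.028 and -0.041 on the same genes, and RM1536 b against a at 0.003. The highest run of 30 neighbouring genes, chr15:100615349-102971893, from Dazap2 to Hoxc10, had medians of 0.392 and 0.553, with 23 of 30 above both; it holds Itgb7. The run chr15:58510048-75048830, which holds Myc, had 0.333 and 0.509. Chromosome 13 lay lower, at -0.210 against each, and chromosome 6 at -0.230 and -0.160. Bone was also low there, at -0.226 and -0.249 on chromosome 13 and -0.307 and -0.229 on chromosome 6. RM1 b lay below RM1 a on chromosome 13, at -0.129, and above it on chromosome 6, at 0.077. On chromosome 15 the difference between the RM1536 libraries was near 0, so the shift does not depend on which of them is used.

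**Figure D5:**
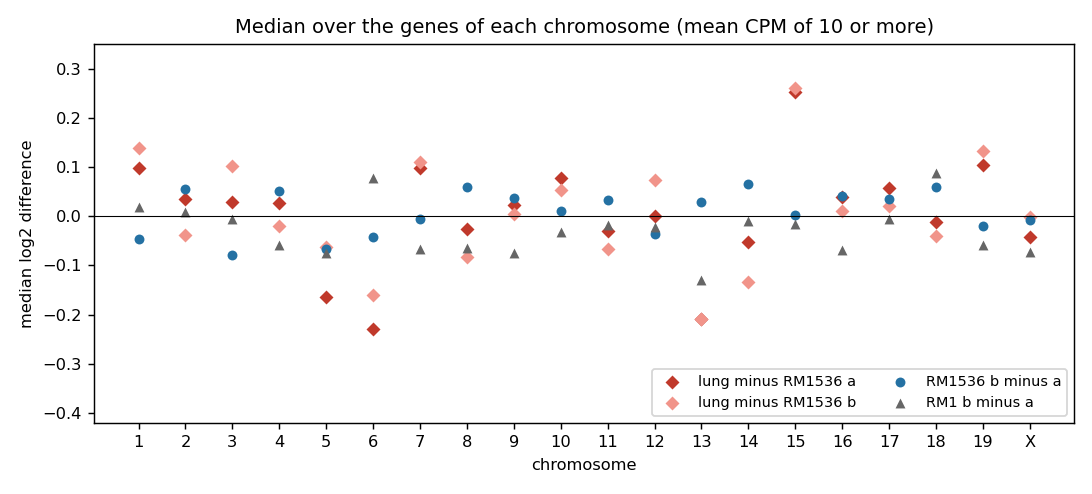
Median log2 difference over genes with a mean of at least 10 CPM on each chromosome, for lung against each RM1536 library (diamonds), RM1536 b against a (circles) and RM1 b against a (triangles). Chromosome 15 stands at 0.252 and 0.260 in lung, and chromosomes 6 and 13 lie lowest.

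Lung and bone came from the same mouse, 1 library each. By edgeR, 1 of 13832 genes passed between them (0.00723%), Trp53i11 (40.3 CPM in lung, 0 reads in bone; adjusted p = 0.0443), and 1171 had an unadjusted p under 0.05 (8.47%). None of the genes named by rule passed. Col1a1 had an adjusted p of 0.147 in lung against bone (604 and 0.790 CPM), as did Bgn. For DNA replication the median of bone against RM1536 was -0.197 (a) and -0.755 (b), beside -1.15 and -1.59 in lung, and for sterol synthesis 0.203 and -0.821, beside -0.813 and -1.83. These pairs of values share the RM1536 libraries.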

How the data were processed

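RNA of 6 libraries was counted per gene. The deposited values are raw counts; the submitters' processing notes name GRCm38, TopHat2 2.1.10, HTSeq and edgeR without roles. Strand setting and annotation: not given in the sources used here. Counts without a gene name (0.00626% to 0.00830%) were left out. Positions are from GENCODE M21, matched by symbol for 23065 of 23791 entries.

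All 6 libraries entered 1 edgeR 4.0.16 fit in R 4.3.3 (TMM, filterByExpr by group, quasi-likelihood test, 4 groups, contrast lung minus RM1536, Benjamini-Hochberg over 13832 genes, call at 0.05). The biological coefficient of variation was 0.269. CPM used TMM-scaled library sizes (factors 0.942 for lung, 1.02 for each RM1536 library), with 0.5 CPM added before log2. A count of 3, the limit that 0 reads allow, equals 0.118 CPM in lung. DESeq2 1.42.0 and limma 3.58.1 (voom) were alternatives. The fit was run on simulated data with the same spread in every library, so the assumption made for the lung library was not tested.

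Named genes are the 15 higher and 15 lower genes at 5 CPM or more with the largest smaller difference from the RM1536 libraries, and up to 6 members of each of 34 lists (793 genes, 28 of them not in the table). Members and lists were chosen with earlier results of these data known. Some named genes and list members are not reported here by name, though counts over the lists include them.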

Additional observations from a re-analysis of the deposited data

How the results depend on the processing

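The lung library has no replicate and comes from 1 mouse, and both recovered populations were cultured again, so these values describe libraries. No paired analysis was possible because the lung library carries no replicate letter to match with a or b.

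Genes called numbered 0 in the fit reported, 356 by DESeq2, 1299 without a low-count filter and 6 with only lung and RM1536 in the fit (Avil, Cdsn, Col1a1, Crip2, Prdm1 and Scara5). With 1 culture library left out they ranged from 0 to 7; the 7, those 6 and Ripk3, came without RM1 b. With 1 RM1536 library left out, lung lay 2-fold above the other in 421 to 971 genes and below it in 440 to 893, the wider counts without RM1536 a. At 4-fold the counts were 62 and 29. Members past 2-fold ranged over the same omissions from 4 to 17 for mitosis, 9 to 22 for sterol and fatty acid synthesis, 3 to 15 for the unfolded protein and ATF4 list, 9 to 10 for immediate early genes and 2 to 13 for lysosome, each highest without RM1536 a. Mitosis had 7 with total counts, 2 with DESeq2 size factors and 2 with a prior of 2 CPM. Leaving out genes 2-fold apart between RM1 a and b, an alternative added after the data were seen, gave 7 replication members, 3 proteases, 1 of the ATF4 list and 2 immediate early genes. The causes were not tested. Total counts turned the sign of the list median for integrins and lung metastasis genes, and against 1 RM1536 library for mesenchymal, p53, Wnt, TGF-beta and Y-linked genes. All 30 named genes were called without a low-count filter, 24 by DESeq2 and 0 by limma-voom. Because these genes were picked by the size of their difference in the same libraries, the calls are not separate support. A read count of 3 in lung, 0.118 CPM, limits what 0 reads can show.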

Other observations

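Some further genes were picked after their values were seen. Rcn3, which codes for a calcium-binding protein of the endoplasmic reticulum, stood at 10.9 CPM in lung against 1.01 and 1.07 in RM1536 and 0.132 in bone. Cercam stood at 70.7 CPM against 12.2 and 9.68, and at 4.52 in bone. Both had an edgeR adjusted p of 0.252 in lung against RM1536. Fgf7, an epithelial growth factor gene, had 92 reads in lung against 5 and 9, and Wnt10a had 22 against 0 in both, with 1.84 CPM in bone. These 2 are members of the growth factor and Wnt lists, and DESeq2 called both.

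Among 278 runs of 30 neighbouring genes, the lowest mean of the paired medians was at chr6:124396816-127494261, from Pex5 to Parp11, at -0.393 against RM1536 a and -0.559 against b, with 23 of 30 genes below both. The run chr13:66906968-78199757, from Mterf3 to Nr2f1, had -0.409 and -0.501. Bone stood at -0.415 and -0.424 in the first run and at -0.294 and -0.325 in the other. RM1 b against RM1 a stood at -0.003 in the first run and at -0.175 in the other.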
